A study of Mus musculus with 4 samples.

Results

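The 10 genes described here encode the contractile machinery of smooth muscle and of the myoepithelium: Acta2, Actg2, Myh11, Myl9, Mylk, Tagln, Cnn1, Tpm1, Tpm2 and Oxtr. They were picked by symbol out of the 27998 genes that the 4 single-cell RNA-seq libraries share, without use of any measured value, and the question was which cells carried them. The libraries came from female Trp53L/L;Brca1L/L;R26Y mice of mixed genetic background, which carry floxed alleles of both tumour suppressor genes and a YFP reporter at Rosa26. All mice received Ad-K8-Cre, an adenovirus that drives Cre from the keratin 8 promoter of luminal cells, by injection into the mammary ducts. The 2 weeks library held sorted YFP+ mammary epithelial cells from about 2 weeks after injection, and the 5 months library held sorted YFP+ epithelial cells together with CD45+ leukocytes from about 5 months after it. The tumour 1 and tumour 2 libraries held DAPI- live cells of tumours that arose after the same injection. The tumour cells were not labelled as selected for YFP, so their label does not leave out stroma of the host, while the premalignant sorts were aimed at recombined epithelium. The labels give no uninjected control, no age and no number of mice per library. The p-values below therefore rest on the spread between these libraries, partly pooled over genes, and that spread may be partly technical.

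In smooth muscle, phosphorylation of the myosin light chain by its kinase lets myosin pull on actin filaments, and tropomyosin, calponin and transgelin sit on those filaments. The myoepithelium is the basal layer of mammary ducts and alveoli, an epithelium with basal keratins that uses the same machinery to expel milk when oxytocin binds its receptor. Pericytes and vascular smooth muscle around vessels and activated fibroblasts of tumours are the other cells known for these genes. Many of the genes are controlled through serum response factor, which binds the CArG box, a pair of C bases and a pair of G bases around an A- and T-rich core.

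Acta2, the smooth muscle alpha-actin, is read from chr19:34241090-34255590 on the minus strand of GRCm38. Its close relative Actg2, the smooth muscle gamma-actin, lies at chr6:83512905-83536265, and because the coding sequences are nearly identical, the split of reads between them is uncertain. Myh11, the smooth muscle myosin heavy chain, lies at chr16:14194535-14291372, Myl9, the regulatory light chain, at chr2:156775420-156781658, and Mylk, the kinase that phosphorylates it, at chr16:34745210-35002420. The actin-binding proteins transgelin (Tagln) and calponin (Cnn1) are encoded at chr9:45929619-45936058 and chr9:22099216-22109630. The tropomyosins Tpm1 and Tpm2 are encoded at chr9:67022590-67049406 and chr4:43514711-43523765, and the oxytocin receptor Oxtr at chr6:112473683-112489943.

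RefSeq promoter windows of the 250 bases before the start site (GRCm38.p6) were found for 7 of the 10 genes. A CArG box with an A and T core, or with at most 1 G or C in that core, was searched on both strands at once because the box is palindromic. It occurred in the windows of Acta2 and Myl9, 2 of 7 genes (28.6%), beside 9.78% of 26994 genes. Non-muscle actin, myosin, tropomyosin and calponin genes related to the set had it in 5 of 10 windows (50%). Regulators of contraction had it in 1 of 5 (20%) and other smooth muscle genes in 2 of 13 (15.4%). The box was thus not particular to the 10 genes. With the uninterrupted core it occurred in Myl9 alone of the set, 1 of 7 genes (14.3%) beside 1.63% of all genes. For the non-muscle relatives this was 3 of 10 (30%), for the regulators 1 of 5 (20%) and for other smooth muscle genes 1 of 13 (7.69%). These are matches of letters, not sites of binding. The stretches below are shown because these 2 genes are among those that moved together in the cells described next; capitals mark the boxes. The Acta2 stretches lie on the minus strand at chr19:34255438-34255467 and chr19:34255388-34255417, with boxes starting 84 and 34 bases before the RefSeq start. The gene in GENCODE begins 217 bases upstream of that start, so both boxes lie inside it. Where its first exon ends was not read. The Myl9 stretch on the plus strand, chr2:156775214-156775419, ends where the first GENCODE exon begins, and its boxes start 161 and 99 bases before the RefSeq start.
Acta2 upstream box: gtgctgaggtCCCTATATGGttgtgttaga
Acta2 downstream box: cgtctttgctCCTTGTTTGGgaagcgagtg
Myl9 upstream region: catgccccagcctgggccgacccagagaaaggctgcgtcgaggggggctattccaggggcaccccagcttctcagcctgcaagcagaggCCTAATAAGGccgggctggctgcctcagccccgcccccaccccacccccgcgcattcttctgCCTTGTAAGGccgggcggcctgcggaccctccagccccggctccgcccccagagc

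Values were UMI counts, that is, counted RNA molecules per gene and cell barcode. After removal of low-quality barcodes and likely doublets, 1286 barcodes remained at 2 weeks, 4487 at 5 months, 2583 in tumour 1 and 1740 in tumour 2. Barcodes with no UMI of Ptprc, the gene of the leukocyte antigen CD45, numbered 1279, 2257, 1095 and 1026 in that order, and they were split by keratin and collagen UMIs. Luminal keratin barcodes had at least 3 UMIs of Krt8 and Krt18, basal keratin barcodes at least 2 of Krt5, Krt14 and Krt17, and collagen barcodes at least 5 of Col1a1, Col1a2 and Col3a1. Luminal keratin only barcodes numbered 1080, 397, 279 and 378. Barcodes with luminal and basal keratin but no collagen numbered 38, 23, 96 and 34, and basal keratin only barcodes 38, 5, 2 and 16. Collagen only barcodes numbered 5, 20, 138 and 34, and barcodes that met no gate numbered 118, 1812, 565 and 564. Another 15 barcodes of tumour 1 had collagen with keratin. A zero of Ptprc does not exclude leukocytes, since 80.3% of such barcodes at 5 months met no gate and carried a median of only 1779 UMIs. Libraries shared between 2 and 15 barcode sequences per pair. Levels are CPM, that is, a gene's UMIs scaled to the total UMIs of the class, with 95% Poisson intervals, and shares of barcodes carry 95% exact binomial intervals; both hold counting error only.

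**Figure D1:**
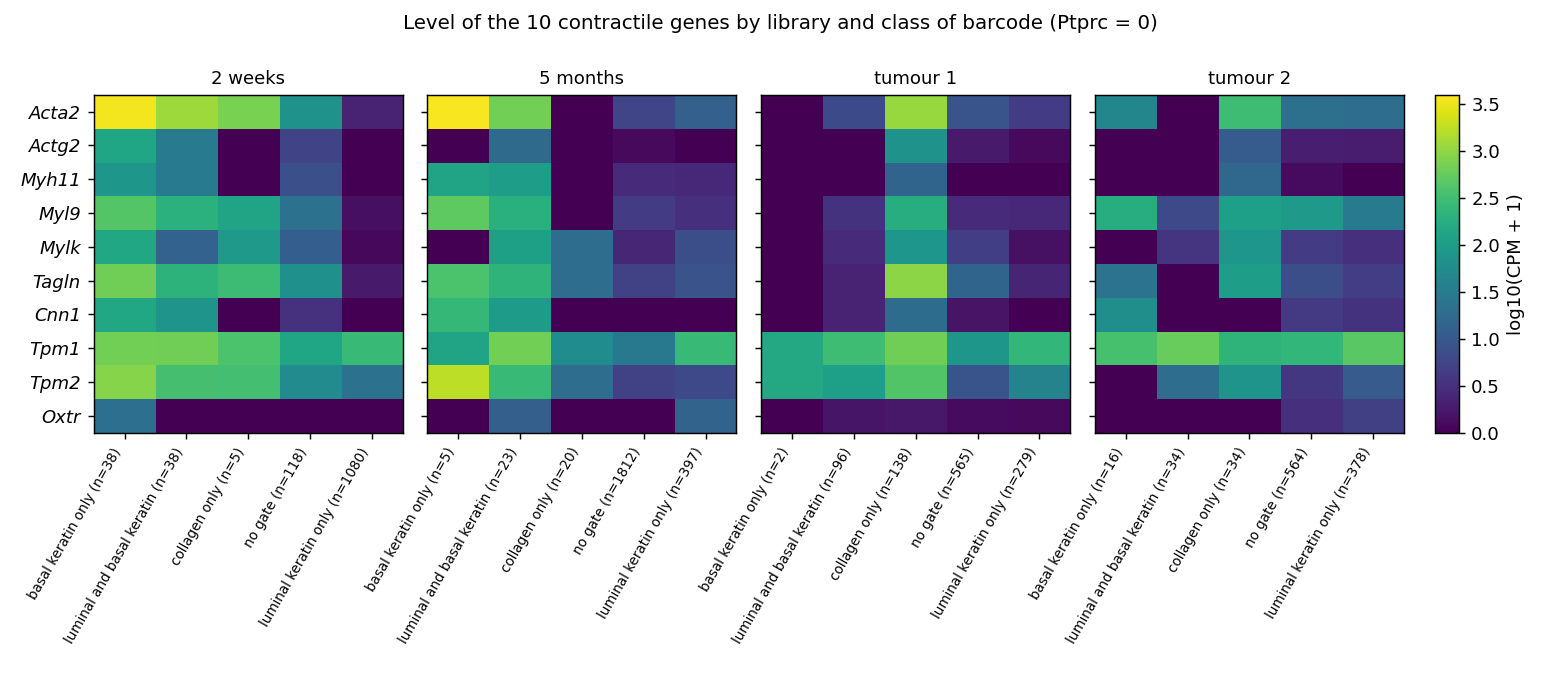
Level of each of the 10 genes, as log10(CPM + 1), in 5 classes of Ptprc-negative barcodes of each library, with the number of barcodes per class on the horizontal axis. Most genes were high in classes with basal keratin at 2 weeks and 5 months and in the collagen only class of tumour 1, while Tpm1 was present in every class with over 100 barcodes.

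Different classes carried most of the Acta2 UMIs in the 4 libraries. At 2 weeks, 58.4% of the Acta2 UMIs of Ptprc-negative barcodes lay in basal keratin only barcodes and 31.9% in those with both keratins. These classes held 2.41% and 3.75% of all UMIs of Ptprc-negative barcodes. At 5 months 63.2% lay in barcodes with both keratins, beside 2.87% of all UMIs. In tumour 1, 92.8% lay in collagen only barcodes, beside 12.3% of all UMIs. In tumour 2 collagen only barcodes held 28.4% of the Acta2 UMIs beside 2.41% of all UMIs. The no gate class held 37.5% beside 48.1%, and luminal keratin only barcodes 30.3% beside 42.5%. The luminal share rested largely on 1 barcode, which held 43 of the 63 Acta2 UMIs of the luminal keratin only class. Tagln had 93.2% of its UMIs in collagen only barcodes of tumour 1.

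At 2 weeks the basal keratin only class was the densest in nearly all of the genes. Acta2 had 3388 CPM (3102 to 3694) there, with a UMI in 34 of 38 barcodes (89.5%), against 1.21 CPM in luminal keratin only barcodes, where 5 of 1080 had a UMI. Transgelin followed with 666 CPM in 27 of 38 barcodes against 0.805 CPM, and Myl9 with 428 CPM in 26 barcodes against 0.403 CPM. These 3 genes were thus near absent from the luminal cells of the same library. Tpm2 had 890 CPM in 33 of 38 barcodes, against 21.9 CPM in luminal keratin only barcodes. Mylk had 145 CPM in 13 barcodes, Cnn1 138 CPM, Actg2 132 CPM and Myh11 79.1 CPM, while the luminal keratin only class held 1 UMI of Mylk and none of the other three. Oxtr had 3 UMIs in 2 of the basal keratin only barcodes and none in any other class of this library. Of the basal markers, the gate genes Krt14 and Krt5 were found in 31 and 22 of the 38 barcodes, and Trp63, the basal transcription factor p63, which no gate used, was found in 8. These values describe 1 library with no replicate. At 5 months it held 5 barcodes, with 29 Acta2 UMIs in 2 of them. In tumour 2 it held 16 barcodes that lacked Krt5 and mostly carried Krt17 (15 of 16), with 8 Acta2 UMIs in 2 barcodes and 31 Myl9 UMIs in 6.

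The collagen only class was compared with the luminal keratin only class in the 3 libraries with at least 10 barcodes of each, 5 months, tumour 1 and tumour 2. Acta2 had 0, 1092 and 302 CPM in collagen only barcodes of these libraries, against 11.7, 3.38 and 18.3 CPM in luminal keratin only barcodes. Tagln had 18.5 (1 UMI), 942 and 103 CPM in collagen only barcodes, against 7.45, 1.35 and 3.49 CPM in luminal keratin only barcodes. Both genes were far above the luminal level in both tumours and not at 5 months. The 5 months class held 20 barcodes and 54092 UMIs, where the 95% interval of a count of 0 reaches 68.2 CPM, so a difference from the luminal levels was not detectable at this depth. Luminal keratin only barcodes with an Acta2 UMI made up 3.94% in tumour 1 and 2.38% in tumour 2, beside 3.83% and 1.68% of barcodes with Ptprc, at median depths of 14704 and 8079 UMIs against 6749 and 5932. Myl9 had 0, 172 and 108 CPM in collagen only barcodes against 2.13, 1.58 and 30.5 CPM, and Mylk had 18.5 (1 UMI), 76.9 and 76.9 CPM against 6.39, 0.451 and 2.04 CPM. Myh11 had 0, 13.4 and 15.4 CPM against 1.60, 0 and 0 CPM, and Actg2 had 0, 69.1 and 10.3 CPM against 0, 0.225 and 0.873 CPM. Myh11 was low in both classes, and Actg2 was low apart from the collagen only class of tumour 1. In collagen only barcodes of tumour 2 Myh11 rested on 3 UMIs and Actg2 on 2. Tpm2 had 18.5 (1 UMI), 414 and 71.8 CPM in collagen only barcodes against 5.32, 39.2 and 9.89 CPM in luminal keratin only barcodes.

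Of the 8 genes that passed the filter on low counts, 7 were higher in collagen only barcodes and 0 lower, beside 10% of all 9833 genes tested that were called higher and 6.95% lower (edgeR quasi-likelihood test, adjusted p under 0.05, library as a term). The median log2 difference of the 8 was 4.73 and that of all genes -0.22. Tagln was higher by 5.53 on the log2 scale (SE 0.726, adjusted p = 9.59e-13), Acta2 by 4.58 (SE 0.688, adjusted p = 8.43e-10) and Mylk by 4.89 (SE 0.685, adjusted p = 3.25e-11). With 1 library left out these values ranged from 3.65 to 7.19 for Tagln, 2.78 to 6.07 for Acta2 and 3.87 to 6.07 for Mylk, lowest without tumour 1 for all 3 and called each time. The spread in this fit was in effect pooled over all genes. The adjusted p-values therefore do not measure how far each gene agreed between the 3 libraries. Acta2, for one, had no UMI in collagen only barcodes of 5 months. Myl9 (3.68, SE 0.706) and Tpm2 (2.90, SE 0.603) also passed. Myh11 and Actg2 were called as well, but at 3 and 4 luminal UMIs over the 3 libraries they did not pass the filter without tumour 1 or without tumour 2. They entered the test mainly through the collagen only class of tumour 1, where they had 19 and 98 UMIs, so their calls and the count of 7 are not read as support. Tagln had 14, 6 and 12 UMIs in luminal keratin only barcodes of 5 months, tumour 1 and tumour 2. Mylk had 12, 2 and 7 UMIs there, and Myl9 had 4, 7 and 105. Tagln, Mylk and Myl9 thus also passed the filter partly through the collagen only class, and their calls are not read as support either. Tpm1 had 55.5, 653 and 220 CPM in collagen only barcodes against 275, 237 and 472 CPM in luminal keratin only barcodes, with intervals apart in each library but in opposite directions, and was not called (-0.59, SE 0.534, adjusted p = 0.544), and Cnn1 and Oxtr did not pass the filter, so the 7 are not a share of the whole set. Cnn1 had 25 UMIs in 9 of 138 collagen only barcodes of tumour 1 and none in its 279 luminal keratin only barcodes. Tumour 2 did not repeat this, with 0 of its 31 Cnn1 UMIs in collagen only barcodes. There 8 lay in luminal keratin only barcodes, 11 in basal keratin only barcodes and 12 in barcodes that met no gate. Without tumour 1, 3 of the genes were called, and without tumour 2, 4. Without the library term 4 were called.

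**Figure D2:**
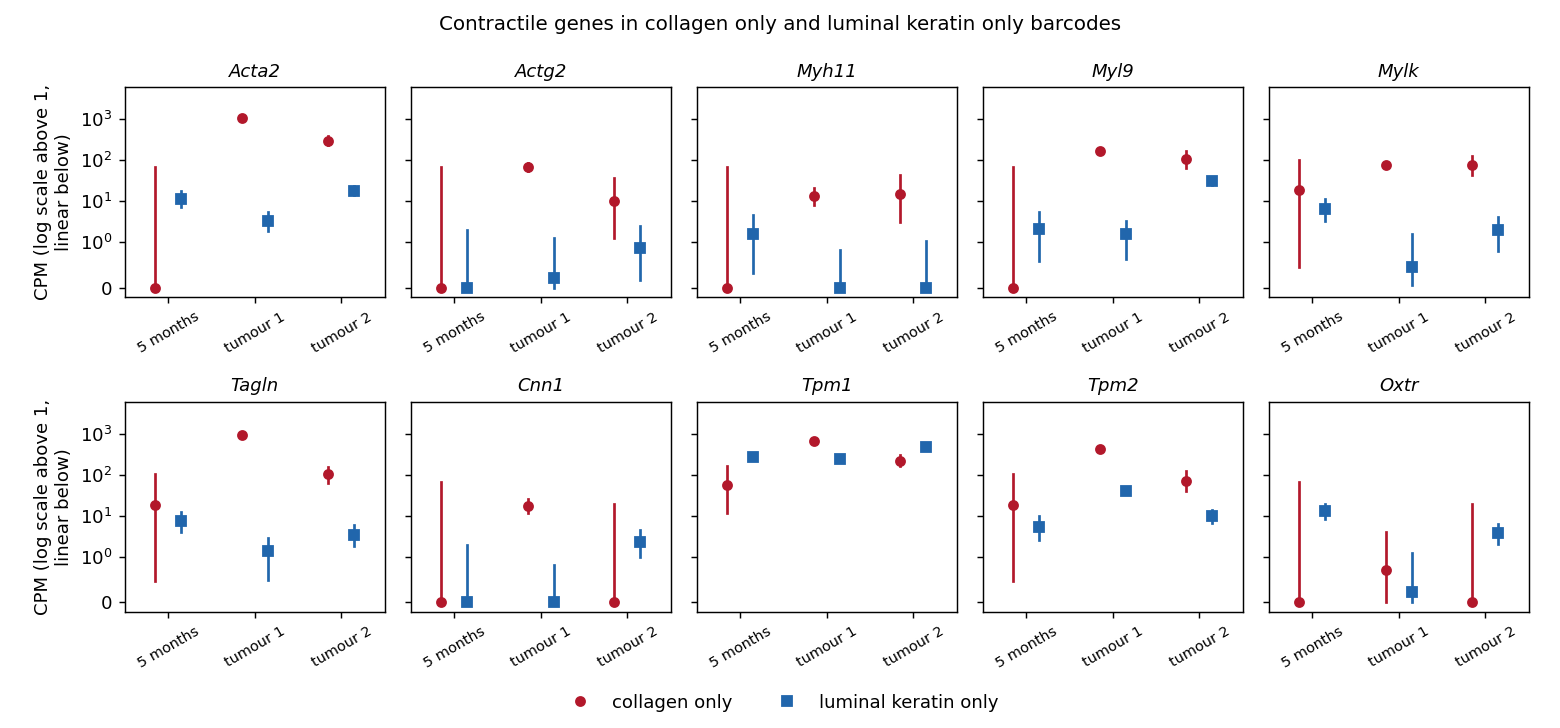
CPM of the 10 genes in collagen only (circles) and luminal keratin only (squares) barcodes of 5 months, tumour 1 and tumour 2, with 95% Poisson intervals as bars; the vertical axis is logarithmic above 1 and linear below. Acta2 stood at 1092 and 302 CPM in collagen only barcodes of the tumours against 3.38 and 18.3 CPM in luminal keratin only barcodes, while Tpm1 was above the luminal keratin only level in collagen only barcodes of tumour 1 and below it at 5 months and in tumour 2.

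Markers of stromal cells were also higher in the same comparison. All 9 genes of the vascular smooth muscle or pericyte list were higher (median log2 difference 6.48), as were 8 of 8 fibroblast and 6 of 6 activated fibroblast genes, while 8 of 8 luminal genes were lower. The collagen gate selects stromal cells, and some genes of these lists entered the test mainly through that class. Rgs5 had 3 and 1 UMIs in luminal keratin only barcodes of tumours 1 and 2, against 496 and 316 in collagen only barcodes. The counts of stromal markers are therefore not read as support. The luminal list holds Krt8 and Krt18, which were used by the gates. No gene of the endothelial (1 tested) or leukocyte list (7 tested) was called. Among other genes of the smooth muscle program, 3 of 11 tested were higher. They were Itga1, an integrin collagen receptor (5.99, SE 1.20), Cald1, the actin-binding caldesmon (1.40, adjusted p = 0.0205), and Des, the muscle intermediate filament protein. Des had 0 UMIs in luminal keratin only barcodes of all 3 libraries and stood at 46.6 CPM in tumour 1 and 113 CPM in tumour 2 in collagen only barcodes, in 23 of 138 and 10 of 34 of them. Des and Itga1 thus entered the test mainly through the collagen only class, and their calls are not read as support either. Of 8 contractile regulators tested, Ppp1r14a, an inhibitor of the myosin phosphatase, alone was higher (4.12, edgeR adjusted p = 7.82e-07), beside 10% of all genes called higher. It had 1, 6 and 13 UMIs in luminal keratin only barcodes of 5 months, tumour 1 and tumour 2. In collagen only barcodes it had 0, 38.8 and 51.3 CPM. Ppp1r14a thus also entered the test mainly through the collagen only class, and its call is not read as support. Of the 11 non-muscle relatives of the contractile genes, 0 were higher and Actg1, the cytoplasmic gamma-actin, was lower (-1.40, adjusted p = 0.00178).

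The collagen only barcodes of the tumours were not uniform. They were split by a UMI of Rgs5, a regulator of G protein signalling known for pericytes, a split chosen after the values were seen and given without a test. In tumour 1, Acta2 was found in 23 of 26 barcodes with Rgs5 (88.5%, 3321 CPM), against 46 of 112 without it (41.1%, 684 CPM). Mylk was found in 80.8% of the Rgs5 barcodes (397 CPM) against 10.7% (18.4 CPM), and Myh11 in 30.8% against 1 barcode. Tagln was found in 84.6% (2149 CPM) against 39.3% (722 CPM). The kinase and the heavy chain thus lay mostly in the Rgs5 group, whereas Acta2 and Tagln were also common outside it. Des was found in 69.2% of the Rgs5 barcodes against 4.46%, and the pericyte receptor gene Notch3 in 50% of them. The fibroblast gene Dcn, which encodes decorin, showed the opposite, with 15.4% against 91.1%. Postn, the activated fibroblast gene of periostin, was common in both, with 96.2% (25 of 26, 1679 CPM) of the barcodes with Rgs5 against 76.8% (86 of 112, 1960 CPM) of those without it. Median depth was 7807.5 UMIs with Rgs5 and 9074.5 without it.

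In tumour 2 Acta2 was found in 8 of 13 barcodes with Rgs5 (61.5%, 713 CPM), against 2 of 21 without it (9.52%, 17.4 CPM). Mylk was found in 53.8% against 14.3% and Tagln in 38.5% against 9.52%. The level of Tagln was nearly equal, with 100 CPM (8 UMIs) with Rgs5 and 104 CPM (12 UMIs) without it. Dcn was found in 0 of the 13 barcodes with Rgs5 and in 95.2% of those without. In both tumours Acta2 was more frequent with Rgs5, but the Acta2 level outside the Rgs5 group was 684 CPM in tumour 1 and 17.4 CPM in tumour 2. At 5 months none of the 20 collagen only barcodes had Rgs5 or Acta2, and all 20 had Dcn and Lum, the fibroblast gene of lumican. The class there held fibroblast markers and few UMIs of the contractile genes, 1 each of Tagln, Mylk and Tpm2 and 3 of Tpm1, at a depth that leaves levels under 68.2 CPM of Acta2 within the interval of a count of 0.

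**Figure D3:**
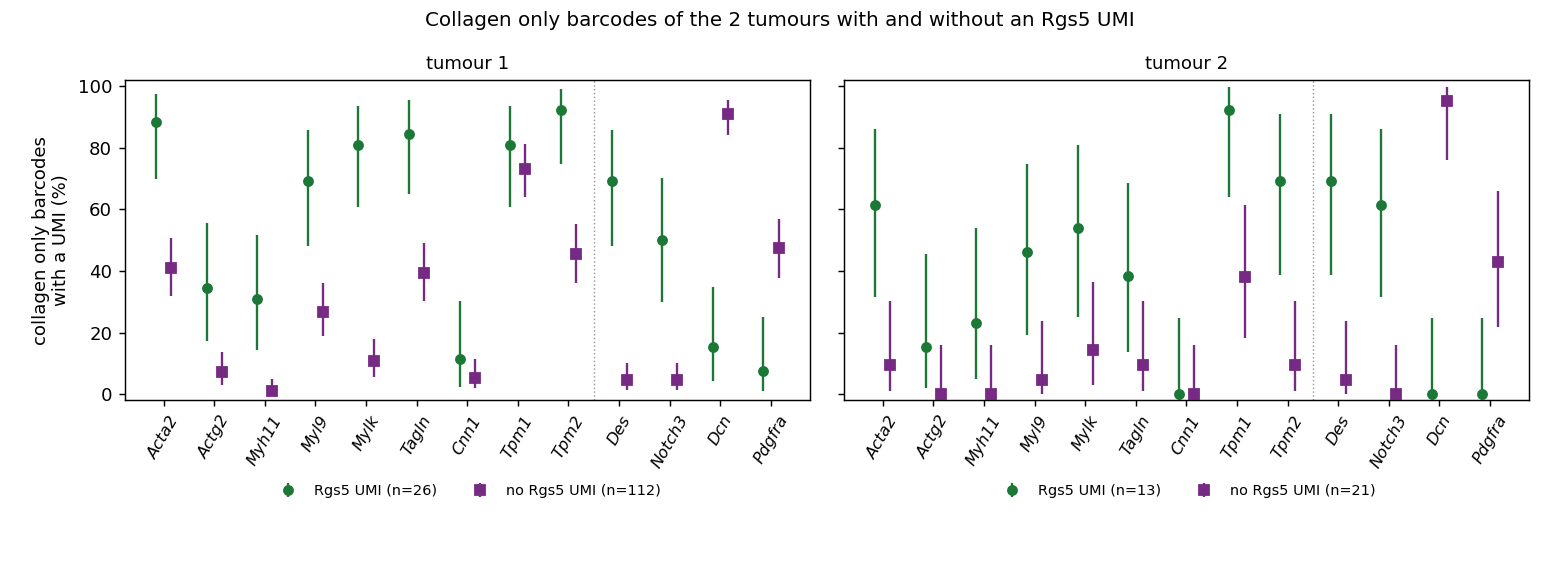
Share of collagen only barcodes with a UMI of 9 contractile genes and, right of the dotted line, 4 marker genes, for barcodes with an Rgs5 UMI (circles) and without one (squares) in each tumour; bars are 95% exact binomial intervals. Mylk and Des were frequent in the Rgs5 group of both tumours, and Dcn in the group without Rgs5.

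Barcodes with luminal and basal keratin were compared with luminal keratin only barcodes in all 4 libraries. Acta2 had 1194, 671, 5.43 and 0 CPM in barcodes with both keratins at 2 weeks, at 5 months, in tumour 1 and in tumour 2, against 1.21, 11.7, 3.38 and 18.3 CPM in luminal keratin only barcodes. Tagln had 212, 218, 1.21 and 0 CPM against 0.805, 7.45, 1.35 and 3.49 CPM. Myl9 had 195, 190, 2.41 and 5.19 CPM against 0.403, 2.13, 1.58 and 30.5 CPM. For these 3 genes the classes were far apart in both premalignant libraries and close together or reversed in the tumours. Mylk had 12.7, 112, 1.81 and 2.59 CPM against 0.201, 6.39, 0.451 and 2.04 CPM. Cnn1 had 72.2 and 95 CPM in the premalignant classes with both keratins, and Myh11 29.7 and 101 CPM. In the tumours the class with both keratins held 2 UMIs of Cnn1 and none of Myh11. Tpm2 had 344, 274, 105 and 18.2 CPM in barcodes with both keratins against 21.9, 5.32, 39.2 and 9.89 CPM in luminal keratin only barcodes, above them in 4 of 4 libraries but by less in the tumours.

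Across the 4 libraries together, 0 of 9 genes tested were called in this comparison, where 0.0982% of 10186 genes were called in either direction (edgeR, library as a term). The median log2 difference was 3.41 for the 9 and -0.07 for all genes. An unadjusted p under 0.05 was reached by 8 of the 9, and DESeq2 called 2. Among the 9, the log2 differences fitted by edgeR were 6.16 for Myh11 (adjusted p = 0.132), 4.19 for Tagln (adjusted p = 0.256) and 4.15 for Acta2 (adjusted p = 0.590). The genes called in this comparison included the gate genes Krt14, Krt17 and Krt5. A test of the difference itself was added after the values were seen: the effect of basal keratin in the tumours minus that in the 2 premalignant libraries. It called 3 of 9 genes lower, beside 0.255% of all genes: Acta2 by -8.12 on the log2 scale (SE 1.21, adjusted p = 0.0160), Myl9 by -8.68 (SE 0.925, adjusted p = 0.00143) and Tpm2 by -3.17 (SE 0.489, adjusted p = 0.0193). Tagln missed the threshold with -6.93 (adjusted p = 0.0561). Cald1 (-2.67, adjusted p = 0.0136) was called with them among 9 other smooth muscle genes tested, and Sparc (-5.87, adjusted p = 0.000582) among 5 activated fibroblast genes. With gates set on counts thinned to equal depth, neither Acta2 (adjusted p = 0.0611) nor Tpm2 (adjusted p = 1) was called and Myl9 did not pass the filter, and with a stricter leukocyte gate neither Acta2 (adjusted p = 0.130) nor Tpm2 (adjusted p = 0.112) was. Acta2 was not called with DESeq2 either (adjusted p = 0.0863), and with 1 library left out its value ranged from -15.4 to -6.21.

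Of the keratins behind the basal gate, Krt5 differed in the same direction as the contractile genes, while Krt14 and Krt17 stayed present in the tumours. At 2 weeks, at 5 months, in tumour 1 and in tumour 2, Krt14 had 824, 682, 664 and 246 CPM in barcodes with both keratins. Krt17 had 782, 922, 31.4 and 633 CPM. In barcodes with both keratins Krt5 was found in 6 of 38 at 2 weeks, 5 of 23 at 5 months, 0 of 96 in tumour 1 and 0 of 34 in tumour 2. The basal gate was met through Krt14 in 94 of 96 barcodes of tumour 1 and through Krt17 in 26 of 34 of tumour 2. Trp63 was found in 4, 1, 0 and 2 of these barcodes. Barcodes with basal keratin in the tumours thus carried Krt14 or Krt17 without Krt5, and in neither tumour did the class hold more than 9 UMIs of any of the 10 genes other than Tpm1 and Tpm2.

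**Figure D4:**
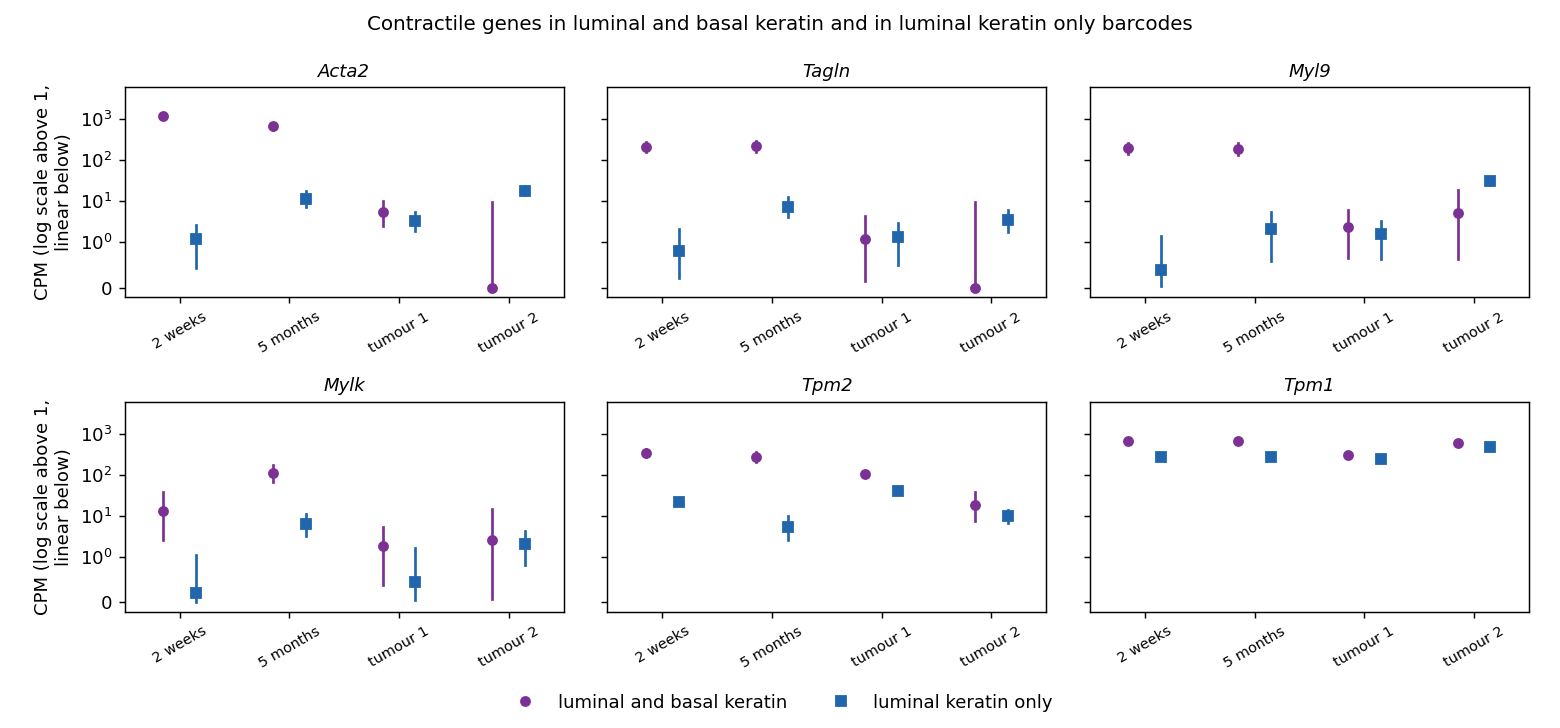
CPM of 6 genes in barcodes with luminal and basal keratin (circles) and luminal keratin only (squares) in each library, with 95% Poisson intervals as bars and a vertical axis that is logarithmic above 1 and linear below. Acta2 stood at 1194 and 671 CPM with both keratins at 2 weeks and 5 months against 1.21 and 11.7 CPM in luminal keratin only barcodes, and at 5.43 and 0 CPM in the tumours.

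Within the class with both keratins the premalignant signal came from a minority of barcodes. At 2 weeks 10 of 38 barcodes had UMIs of at least 3 of the 10 genes. Krt5 was found in 6 of those 10 and in 0 of the other 28. The 8 luminal marker genes together had 2159 CPM in the 10 barcodes against 13992 CPM in the 28, at median depths of 6548.5 and 5910.5 UMIs. At 5 months 6 of 23 barcodes had at least 3 of the genes, and Krt5 was found in 5 of the 6 against 0 of 17. Their luminal marker genes had 7929 CPM against 20464 CPM, and their median depth was 13563 UMIs against 4666. At 2 weeks the multi-gene barcodes were low in luminal markers, and at 5 months they were much deeper than the rest of the class. The part of joined droplets of a basal and a luminal cell in these values was not tested.

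Several genes in 1 barcode marked the same classes. Thinned to 2000 UMIs per barcode, with shallower barcodes left out, 81.2% (63.6 to 92.8, 26 of 32) of basal keratin only barcodes at 2 weeks had at least 3 of the 10 genes, and 23.7% (9 of 38) of those with both keratins, against 0 of 926 luminal keratin only barcodes. At 5 months 3 of 22 barcodes with both keratins did (13.6%), against 0 of 370 luminal keratin only barcodes, with 0 of 13 in the collagen only class. In tumour 1 the share was 33.3% (25.5 to 41.9, 46 of 138) in collagen only barcodes and 0 of 96 with both keratins, against 1 of 279 luminal keratin only barcodes (0.358%). In tumour 2 it was 11.8% (3.30 to 27.5, 4 of 34) in collagen only barcodes and 0 of 34 with both keratins, against 1 of 378 luminal keratin only barcodes (0.265%). Barcodes with Ptprc, taken as background, gave 0.0746% at 5 months, 0.336% in tumour 1 and 0.140% in tumour 2. The luminal shares lay at or near this background, and with gates set on the thinned counts the 2 weeks share with both keratins was 4.35%. At full depth the shares in collagen only barcodes were 51.4% in tumour 1 and 35.3% in tumour 2, and at least 6 of the genes were found together in 29 collagen only barcodes of tumour 1 and in 17 basal keratin only barcodes of 2 weeks. By number, the 63 barcodes of tumour 2 with at least 3 genes lay mostly elsewhere. Of these 30 met no gate, 17 were luminal keratin only, 12 collagen only and 4 basal keratin only. In tumour 1, 9 of 15 barcodes with collagen and keratin had at least 3 genes at full depth, and 1 of 15 after thinning.

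**Figure D5:**
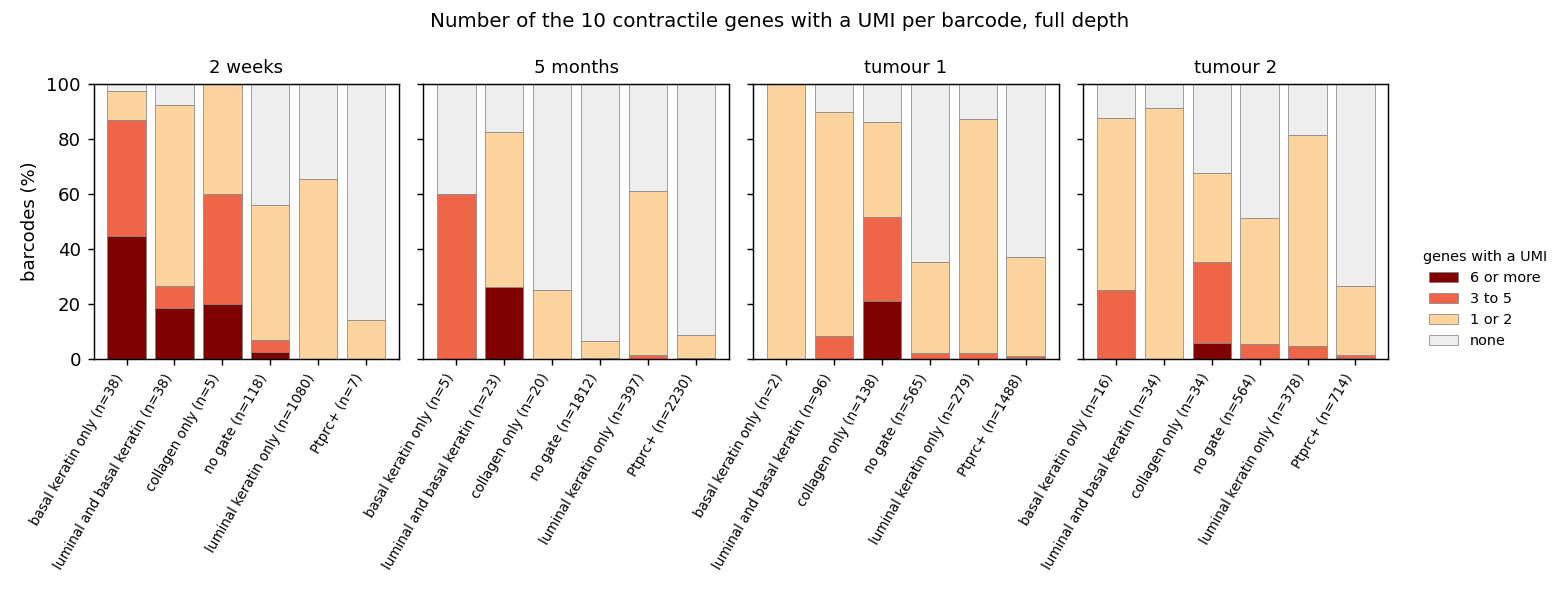
Share of barcodes by the number of the 10 genes with a UMI at full depth (none, 1 or 2, 3 to 5, 6 or more), for each class and library, with barcodes that carry Ptprc at the right of each panel. At 2 weeks 33 of 38 basal keratin only barcodes had at least 3 genes, and in tumour 1 71 of 138 collagen only barcodes did.

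The genes met each other in single barcodes. Of Ptprc-negative barcodes with an Acta2 UMI, 68.3% at 2 weeks, 47.6% at 5 months, 60.6% in tumour 1 and 25.0% in tumour 2 also had Tagln. Of those without Acta2, 0.984%, 0.671%, 3.65% and 1.32% had it. Myl9 accompanied Acta2 in 65.0%, 47.6%, 53.2% and 60% of barcodes, against 0.574%, 0.179%, 1.12% and 11.8% of barcodes without Acta2. Myl9 in tumour 2 was therefore common without Acta2. Median depths with and without Acta2 were 3639.5 and 4167 UMIs at 2 weeks, 4869 and 1984.5 at 5 months, 11093 and 7276 in tumour 1 and 7619 and 6844.5 in tumour 2.

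Over 18 class sums of the 4 libraries with at least 10 barcodes, and among 9345 genes with at least 200 UMIs, the level of Acta2 as log2(CPM + 10) was most like that of Tagln among the 10 genes (Pearson r = 0.956). Myl9 was most like Acta2 (r = 0.899), Cnn1 most like Myl9 (r = 0.833) and Myh11 most like Mylk (r = 0.867). Outside the set the genes most like Acta2 were Tgfb1i1, a focal adhesion adaptor (r = 0.874), Tshz2 (0.788), Usp47 (0.782), Frmd6 (0.754), Mgll (0.748), Jag1, a Notch ligand (0.746), Sema3c (0.738) and Luzp1 (0.733). The sums share libraries and differ in depth, so these values are a description.

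Barcodes that met no gate were compared with luminal keratin only barcodes in all 4 libraries. Of 7 genes tested, 0 were called (1 at an unadjusted p under 0.05, and 1 with DESeq2), where 5.95% of 12155 genes were called in either direction, and the median log2 difference was 1.18 for the 7 and 0.00 for all genes. Acta2 had 67.4, 4.62, 7.57 and 20.1 CPM in barcodes that met no gate, against 1.21, 11.7, 3.38 and 18.3 CPM in luminal keratin only barcodes. The 2 weeks value came from 7 of 118 barcodes and the classes overlapped over the libraries. Tpm1 had 131, 27.5, 78.8 and 243 CPM in barcodes that met no gate against 271, 275, 237 and 472 CPM in luminal keratin only barcodes, lower in 4 of 4 libraries, but the difference of -1.61 on the log2 scale missed the threshold (edgeR adjusted p = 0.0786). This class was a mixture, with 7 of 8 endothelial and 8 of 8 leukocyte genes called higher in it. At 2 weeks the 8 such barcodes with at least 3 of the contractile genes had 15844 CPM of the endothelial list against 201 CPM in the other 110, and their median depth was 1917.5 UMIs. Most of this came from Ackr1 (8413 CPM) and Selp (5518 CPM), each found in 4 of the 8, while Pecam1 was found in 2 and Cdh5 in 3. The same 8 also had more Rgs5 (382 against 4.51 CPM), Des (164 against 13.5 CPM) and Notch3 (109 against 10.1 CPM), found in 2, 3 and 2 of them. In tumour 1 the 11 such barcodes had 1413 CPM of the vascular smooth muscle or pericyte list against 34.4 CPM in the rest of the class. The part of these cell types in the contractile signal was not tested.

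Myl9 in tumour 2 stood apart from the other genes. It had 85.7 CPM (76.7 to 95.4) in barcodes that met no gate, with a UMI in 94 of 564 (16.7%, 6.91% after thinning), against 30.5 CPM in luminal keratin only barcodes (31 of 378, 8.20%). In tumour 1 the values were 1.68 CPM in barcodes that met no gate and 1.58 CPM in luminal keratin only barcodes. The class without a gate held 67.7% of the Myl9 UMIs of Ptprc-negative barcodes of tumour 2, beside 48.1% of all their UMIs. Barcodes with Ptprc had 8.38 CPM (2.24% of barcodes). The light chain was thus frequent in tumour 2 barcodes with neither keratin, collagen nor Ptprc above the gates, and not in those of tumour 1. Of the 94 barcodes, 76 also had a UMI of Cdkn2a, the gene of the cell cycle inhibitors p16 and p19Arf, against 168 of 470 without Myl9, and 12 had the epithelial gene Epcam. The Myl9 barcodes were deeper, with a median of 10348.5 UMIs against 5027, and the level of Cdkn2a was 450 CPM with Myl9 against 390 CPM without it. Myl9, Acta2 and Tpm1 were found in 28, 14 and 30 of the 30 barcodes of this class that had at least 3 of the contractile genes. These 30 barcodes were not marked as pericytes or vessels, with 84.3 CPM of the pericyte list against 64.6 CPM in the other barcodes and 38.9 CPM of the endothelial list against 65.4 CPM.

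Tpm1 was found in most luminal barcodes, unlike the other 9 genes. It had 271, 275, 237 and 472 CPM in luminal keratin only barcodes at 2 weeks, at 5 months, in tumour 1 and in tumour 2, in 63.7%, 56.7%, 81.0% and 79.6% of these barcodes, while Ptprc-carrying barcodes had 31.0, 88.0 and 79.9 CPM at 5 months and in the tumours. The luminal keratin only class held 77.6% of the Tpm1 UMIs at 2 weeks, 68.6% at 5 months, 31.2% in tumour 1 and 56.0% in tumour 2, beside 79.0%, 30.1%, 38.5% and 42.5% of all UMIs of Ptprc-negative barcodes, so Tpm1 was not concentrated in it at 2 weeks or in tumour 1. Barcodes with both keratins had 663, 671, 305 and 584 CPM of Tpm1, above the luminal keratin only class in 4 of 4 libraries, with a log2 difference of 0.65 that was not called (edgeR adjusted p = 0.40). The highest Tpm1 level of tumour 1, 1412 CPM, was that of the 15 barcodes with collagen and keratin, whose median depth of 26599 UMIs was well above that of every other class.

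Oxtr was found mainly in luminal keratin only barcodes at 5 months and in tumour 2, while its 3 UMIs at 2 weeks were in basal keratin only barcodes and tumour 1 held 4 UMIs over 4 classes. At 5 months it had 12.8 CPM (8.18 to 19.0) in luminal keratin only barcodes, from 24 UMIs in 23 of 397 barcodes (5.79%, 3.24% after thinning), against 0.144 CPM in barcodes with Ptprc (1 of 2230). At 2 weeks the luminal keratin only class had 0 UMIs in 1080 barcodes, with a 95% Poisson interval of up to 0.743 CPM. In tumour 2 it had 3.78 CPM (2.01 to 6.47, 11 of 378 barcodes) against 0.43 CPM in barcodes with Ptprc (2 of 714), and in tumour 1 a single UMI. The luminal keratin only class of tumour 2 held 13 of the 21 Oxtr UMIs of Ptprc-negative barcodes (61.9%, beside 42.5% of all UMIs). The other 8 lay in barcodes that met no gate (38.1%, beside 48.1%). The receptor was therefore measured above the leukocyte background in luminal barcodes of 5 months and tumour 2, at few UMIs. Of the 24 luminal keratin barcodes with Oxtr at 5 months, 23 had a UMI of the casein gene Csn2 and 24 of Csn3, against 304 and 318 of 396 without Oxtr. Esr1, the oestrogen receptor of hormone-sensing luminal cells, was found in 0 of 24 and in 11 of 396. The depths were unequal, with medians of 6260 UMIs with Oxtr and 4233 without it.

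Last, all luminal keratin barcodes without collagen, with or without basal keratin, were compared between stages, with the 2 tumours as the only replicates and the lone premalignant libraries assumed to vary as they do. These numbered 375 and 412 barcodes in tumours 1 and 2, 1118 at 2 weeks and 420 at 5 months. Tagln had 1.31 and 3.14 CPM in the tumours, against 10.4 CPM at 2 weeks and 25.8 CPM at 5 months. Acta2 had 3.94 and 16.5 CPM in the tumours, against 55.2 CPM at 2 weeks and 69.0 CPM at 5 months. Both genes were lower in each tumour than in each premalignant library, and the premalignant level of Tagln came mostly from the few barcodes with basal keratin, which held 50 of its 54 UMIs at 2 weeks and 39 of 53 at 5 months. Against 2 weeks, 0 of 9 genes were called (4 at an unadjusted p under 0.05, 0 with DESeq2), where 4.61% of 12263 genes were called in either direction, and the median log2 difference was 0.04 for the 9 and 0.05 for all genes. Against 5 months, Tagln alone of 9 genes was called, lower in both tumours by -3.64 on the log2 scale (SE 0.749, edgeR adjusted p = 0.0405), beside 0.799% of all genes called lower, with medians of -2.92 for the 9 and 0.06 for all genes. Tagln was not called without the 2 weeks library (adjusted p = 0.0539), with DESeq2 (adjusted p = 0.122), with likely doublets kept (adjusted p = 0.0583) or with stricter gates (adjusted p = 0.206). Acta2 differed from 5 months by -2.88 (adjusted p = 0.0948), Mylk by -3.52 (adjusted p = 0.146) and Oxtr by -2.92 (adjusted p = 0.402), and Tpm1 and Tpm2 by 0.17 and 0.22.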

How the data were processed

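The kit was 10x Chromium 3' v2, per the labels. The authors used Cell Ranger with mm10 (GRCm38), per the submitters' processing notes; its version is not given in the sources used here. What they deposited are raw UMI counts per gene and barcode. A further 694 genes listed only for 5 months were not used here.

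Kept barcodes had 500 or more genes and up to 10% mitochondrial UMIs. Scrublet's own threshold (scanpy 1.11.5) called 4, 0, 0 and 8 doublets, so the highest scores were removed at 0.8% per 1000 barcodes instead (15, 181, 57 and 25). Deposited barcodes numbered 1453, 4836, 2712 and 1780, with 6722044, 15060411, 23736366 and 13061942 UMIs. Counts were summed per library and class, with at least 10 barcodes per sum, and tested with edgeR 4.0.16 in R 4.3.3 (filterByExpr, TMM, quasi-likelihood F test, Benjamini-Hochberg over all genes tested). Class comparisons had the library as a term and the stage comparison had none; residual degrees of freedom were 2 for the collagen class, 3 for the other classes, 2 for the added difference and 1 for the stages. DESeq2 1.42.0, other scalings, filters and gates were alternatives, and the fits were tested on simulated data.

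All 10 genes are named. Genes of other lists are named by the largest absolute log2 difference among those called, and genes like Acta2 by the 8 highest correlations. The genes, gates and lists were chosen with earlier results of these data known. The Rgs5 split, the test of the difference between tumours and premalignant libraries, and leaving out Tpm1 were chosen after these values were seen. Gene positions are from GENCODE M21 and promoters from RefSeq.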

Additional observations from a re-analysis of the deposited data

Results flagged for a closer look

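The effect of basal keratin on 3 genes in luminal keratin barcodes differed between the tumours and the premalignant libraries in a test added after the values were seen (edgeR, 2 tumours and 2 premalignant libraries). The difference was -8.12 on the log2 scale for Acta2, -8.68 for Myl9 and -3.17 for Tpm2. The Acta2 value rests in part on a count of 0 in tumour 2 and ranged from -15.4 to -6.21 with 1 library left out. It was not called under 3 alternatives, DESeq2, gates on thinned counts and a stricter leukocyte gate. Krt5 was found in 0 of the 96 and 34 barcodes with both keratins of the tumours. The part of Krt5-positive cells in these differences was not tested.

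In the collagen only class the 5 months library went the opposite way from both tumours for 3 genes, a difference that was not tested. The level in collagen only minus luminal keratin only barcodes at 5 months was -11.7 CPM for Acta2, -2.13 CPM for Myl9 and -1.60 CPM for Myh11. The collagen only class there had 0 UMIs of each gene, and the 95% interval of that count reaches 68.2 CPM, above all 3 luminal levels.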

How the results depend on the processing

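Of 131 values of called genes under the alternatives, 119 counted as unchanged, 12 lost the threshold and 0 reversed. Unchanged meant the same direction and the same side of the threshold. Tagln against 5 months without tumour 1 and without tumour 2 had no test and counted as unchanged by its size alone. Alternatives in which a gene did not pass the filter are not among the 131. For collagen only, Actg2 and Myh11 thus gave 9 values each, against 13 for Acta2. Collagen only against luminal keratin only called 4 of the genes without the library as a replicate block and 3 to 7 with each library left out; without tumour 1 Myl9 fell to 1.67 and Tpm2 to 2.54 on the log2 scale and missed the threshold, and Actg2 and Myh11 did not pass the filter. Both keratins against luminal keratin only called 8 with no filter, 2 with DESeq2, 1 with stricter gates, 1 with gates on thinned counts, 2 with a stricter leukocyte gate and 0 to 1 with each library left out. The added difference called 5 with no filter, 5 with stricter gates, 0 with gates on thinned counts, 1 with the leukocyte gate and 4 to 5 with each library left out. No gate against luminal keratin only called 1 with no filter, 1 with DESeq2, 1 with thinned gates and 2 with the leukocyte gate. Tumours against 2 weeks called 1 with no filter and 1 with the leukocyte gate. Tumours against 5 months called 4 with no filter, 2 with every deposited barcode and 2 with the leukocyte gate, and 0 with DESeq2, without the 2 weeks library, with doublets kept, with stricter gates and with thinned gates. The causes were not tested. Without either tumour the stage fits have no residual degrees of freedom and give no test. No paired analysis was possible between stages because the tumours and premalignant libraries share no replicate pairing; the library term is the replicate block of the class comparisons, and without it the other two class comparisons again called 0 of the genes.

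Over all genes the calls ranged from 637 without tumour 1 to 1836 (1669 in the reported fit) for collagen only, 1 to 227 (10) for both keratins, 1 without 5 months to 1574 with DESeq2 (723) for no gate, 0 to 1155 (565) against 2 weeks, 0 to 525 (129) against 5 months and 6 to 357 (31) for the added difference. For both keratins 4 genes were higher and 6 lower with TMM, and 6 and 5 with library size only, which moved the median of all genes from -0.07 to 0.06 on the log2 scale. The share of barcodes with at least 3 genes was 96.8% (stricter gates) and 97.1% (thinned gates) in basal keratin only barcodes at 2 weeks and 4.35% (thinned gates) with both keratins. At full depth it was 51.4% and 35.3% in collagen only barcodes and 2.15% and 4.50% in luminal keratin only barcodes of tumours 1 and 2, and 1.51% in luminal keratin only barcodes at 5 months. In luminal keratin only barcodes it was 0 in tumour 1 with doublets kept, every deposited barcode, thinned gates, the leukocyte gate or Tpm1 not counted, and 1.55% in tumour 2 with every deposited barcode. Depth limits the 5 months collagen class, Myh11, Cnn1, Actg2 and Oxtr most, all of which rest on few UMIs.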
